A study of Mus musculus with 12 samples.

Results

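Kcne2, Kcnj13, Slc4a5, Clic6 and Cldn2 are genes of ion transport and cell junctions, and Tmem72 encodes a transmembrane protein. All 6 are known for their expression in the choroid plexus, and their RNA levels were read in brain samples of 12 mice. Since the count table of the study carries no gene names, a gene was named only where its mean normalized count equalled a single entry of the paper's DESeq2 table within a relative difference of 1e-09. This match paired 1349 of the 1684 genes of that table with the 15928 genes counted, and all 6 of the 6 genes described here were among them. That table was selected by the same contrast of Tg with Wt mice, so a gene could be named only if it had been picked there. The differences between Tg and Wt mice given here are therefore a description of these 6 genes and no independent support for them.

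The Tg mice are Tg2576 transgenics, whose inserted human APP gene bears the Swedish mutation and is known to be driven by the hamster prion protein promoter, and the wild type (Wt) mice lack it. The study asked which transcripts differ between the genotypes in brain tissue holding both dorsal hippocampus and cortex, taken from mice of 11 months by their labels (the paper's methods give a range of ages that reaches higher), and it names no strain. Total RNA of each sample was freed of ribosomal RNA and sequenced in bulk, with 1 library per mouse and between 15768135 and 20996174 counts per library. Libraries were prepared and sequenced in 2 batches. Of the 5 Wt mice, 12, 79 and 80 were labelled female and 41 and 95 male. Of the 7 Tg mice, 32, 91, 92 and 93 were labelled female and 67, 68 and 69 male. Batch 1 held 3 Wt mice (12, 41 and 95) and 5 Tg mice (32, 67, 91, 92 and 93), while batch 2 held 2 Wt females (79 and 80) and 2 Tg males (68 and 69), so in batch 2 the effects of genotype and of sex cannot be told apart.

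Levels are given in CPM, counts per 1000000 of the library's total after scaling by edgeR's TMM factors. App, the gene of the amyloid precursor protein, was between 1214 and 1496 CPM in Wt mice and between 2991 and 5727 CPM in Tg mice, so every Tg library lay above every Wt library. Xist, the RNA made from the inactive X chromosome of females, went against the label of 1 mouse. Wt mouse 41, labelled male, had 199 CPM of Xist, within the 149.5 to 233 CPM of the mice labelled female, while the other mice labelled male had at most 0.0563 CPM. Its label was kept, and results are given both with and without it.

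The choroid plexus is a folded epithelium in the brain ventricles that secretes cerebrospinal fluid. Its cells move sodium, chloride, bicarbonate and water from blood to ventricle, recycle potassium through channels in the membrane that faces the fluid, and are joined by tight junctions that form the barrier between blood and fluid. In bulk tissue, fewer cells of a type and less RNA per cell cannot be told apart, and this holds for each of the values that follow.

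RefSeq promoter windows, the 250 bases before the transcription start on GRCm38.p6, were found for 5 of the 6 genes and are shown because their levels moved together over the mice, as described further on. The windows lie at chr16:92292139-92292388 on the plus strand for Kcne2, chr1:87394730-87394979 on the minus strand for Kcnj13, chr6:83237125-83237374 on the plus strand for Slc4a5, chr6:116716759-116717008 on the minus strand for Tmem72 and chrX:139800558-139800807 on the plus strand for Cldn2. That of Slc4a5 lies wholly, and that of Tmem72 in part, inside the gene as GENCODE draws it. Each is written 5′ to 3′ on the strand of its gene, and capitals mark TATAAA, the core of the TATA box, or its reverse complement TTTATA.
Kcne2: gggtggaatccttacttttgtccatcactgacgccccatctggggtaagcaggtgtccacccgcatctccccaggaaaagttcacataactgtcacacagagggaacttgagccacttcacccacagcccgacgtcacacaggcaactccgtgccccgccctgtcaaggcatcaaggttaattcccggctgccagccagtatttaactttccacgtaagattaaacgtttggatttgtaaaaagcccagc
Kcnj13: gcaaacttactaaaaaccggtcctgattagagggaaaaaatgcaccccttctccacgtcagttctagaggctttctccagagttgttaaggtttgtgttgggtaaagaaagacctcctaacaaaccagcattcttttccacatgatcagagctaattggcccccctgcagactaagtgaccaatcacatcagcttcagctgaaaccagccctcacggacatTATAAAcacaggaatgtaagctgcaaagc
Slc4a5: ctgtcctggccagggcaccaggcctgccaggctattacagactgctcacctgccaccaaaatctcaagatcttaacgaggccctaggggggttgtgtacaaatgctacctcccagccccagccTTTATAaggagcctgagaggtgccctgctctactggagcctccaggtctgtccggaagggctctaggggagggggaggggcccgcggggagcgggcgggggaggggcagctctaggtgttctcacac
Tmem72: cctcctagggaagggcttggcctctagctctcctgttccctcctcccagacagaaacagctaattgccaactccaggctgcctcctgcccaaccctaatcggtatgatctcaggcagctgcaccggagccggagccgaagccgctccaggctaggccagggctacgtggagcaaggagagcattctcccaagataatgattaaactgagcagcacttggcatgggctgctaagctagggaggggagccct
Cldn2: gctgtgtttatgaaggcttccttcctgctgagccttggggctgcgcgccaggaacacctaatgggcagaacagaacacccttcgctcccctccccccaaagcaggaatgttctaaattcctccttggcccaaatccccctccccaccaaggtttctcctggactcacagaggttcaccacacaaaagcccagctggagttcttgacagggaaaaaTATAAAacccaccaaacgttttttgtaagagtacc

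TATAAA ended 24 bases before the start of Kcnj13 and 30 bases before the start of Cldn2, and on the other strand it lay 127 to 122 bases before the start of Slc4a5. RefSeq gives Kcne2 a further start, so there were 6 windows for these genes, and 3 of the 6 held TATAAA on either strand against 12.4% of all 32841 promoter windows of this length. Other motifs were searched on both strands, with no match sharing a base with a match of another motif. CANNTG, the E-box, was found in 6 of 6 windows and in 66.2% of all windows. CCAAT was found in 1 of 6, that of Kcnj13, on both strands, and in 33.9% of all. GTTGCC, a part of the X-box of ciliary genes, was found in 1 of 6, that of Kcne2, and in 10.4% of all, and TAATCC, the core bound by OTX2, in 0 of 6 and in 6.25% of all. The printed windows had 9 CpG dinucleotides in Kcne2, 3 in Kcnj13, 6 in Slc4a5, 6 in Tmem72 and 4 in Cldn2, beside a median of 6 over all windows. A match describes the letters of the window only.

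Kcne2 and Kcnj13 serve potassium transport. Both were higher in 5 of the 7 Tg mice (32, 68, 69, 91 and 92) than in any Wt mouse, while Tg mice 67 and 93 were below the Wt median. Kcne2 encodes an auxiliary subunit of voltage-gated potassium channels (chromosome 16 of GRCm38, 92292389 to 92298129, plus strand). In Wt mice 12, 41, 79, 80 and 95 its level was 1.69, 0, 0.596, 0.355 and 0.0563 CPM. In the 7 Tg mice the lowest level was 0, the median 3.34 and the highest 7.31 CPM. The groups thus overlapped, and the counts of 0 in Wt mouse 41 and Tg mouse 67 allow up to 0.167 and 0.173 CPM, the level of 3 counts, a limit for counting error only. The log2 fold change of Kcne2 between Tg and Wt mice, with sex and batch as covariates in edgeR's quasi-likelihood fit, was 3.18 (standard error 1.01, Benjamini-Hochberg adjusted p = 0.611 over all 15928 genes), a fold change of 9.09. Without mouse 41 it was 2.94. Here and below, standard errors of edgeR fits were worked back from the F statistic of the test, so they add nothing to its p-value.

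Kcnj13 encodes an inwardly rectifying potassium channel of the membrane that faces the cerebrospinal fluid (chromosome 1, 87386363 to 87394729, minus strand). In Wt mice 12, 41, 79, 80 and 95 it was at 5.19, 0.0555, 2.70, 0.946 and 0.506 CPM. In Tg mice the lowest was 0.231, the median 11.9 and the highest 22.2 CPM. Tg mice 67 and 93, at 0.231 and 0.335 CPM, were below all Wt mice but mouse 41, and the remaining Tg mice were above all Wt mice. Its log2 fold change was 2.92 (standard error 0.932, edgeR Benjamini-Hochberg adjusted p = 0.611), and 2.65 without mouse 41. In GENCODE, 623 of the 1270 exon bases of Kcnj13, or 49.1%, also lie in exons of Gigyf2 on the opposite strand. Whether reads were counted by strand is not stated, so reads of Gigyf2 in the Kcnj13 count were not tested. The other 5 genes share 0 exon bases with another gene.

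Slc4a5 encodes an electrogenic sodium bicarbonate cotransporter (chromosome 6, 83219828 to 83304945, plus strand). Its levels in Wt mice 12, 41, 79, 80 and 95 were 2.68, 0.0555, 1.83, 0.236 and 0.450 CPM. Tg mice had a lowest level of 0, a median of 11.0 and a highest level of 14.4 CPM. The 0 was mouse 93, where 3 counts would be 0.167 CPM, and mouse 67 had 0.0577 CPM, so these Tg mice lay at the bottom of the Wt range or under it. In this fit Slc4a5 had the highest log2 fold change of the 6 genes, 3.22 (standard error 1.05, edgeR Benjamini-Hochberg adjusted p = 0.611), and 2.97 without mouse 41.

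Clic6 belongs to the chloride intracellular channel family (chromosome 16, 92485736 to 92541243, plus strand). In Wt mice 12, 41, 79, 80 and 95 it was at 15.4, 1.67, 8.66, 7.80 and 3.60 CPM. In Tg mice its lowest level was 5.19, its median 21.8 and its highest 36.6 CPM. It was above 1 CPM in 12 of 12 mice, unlike the other genes, of which Kcne2 was above 1 CPM in 6 mice and each of the remaining 4 in 7 mice. Those mice always included the 5 high Tg mice, without which these genes would be missing from the count table. The same 5 Tg mice were above all Wt mice, and Tg mice 67 and 93, at 5.19 and 5.47 CPM, fell between Wt mice 95 and 80. In this fit its log2 fold change was the lowest of the 6, at 1.72 (standard error 0.488, edgeR Benjamini-Hochberg adjusted p = 0.610, a fold change of 3.29), and 1.51 without mouse 41.

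Tmem72 encodes a transmembrane protein (chromosome 6, 116679063 to 116716913, minus strand). In Wt mice 12, 41, 79, 80 and 95 it was at 2.04, 0, 1.42, 0.650 and 0.450 CPM, the 0 of mouse 41 allowing up to 0.167 CPM. In Tg mice it ran from 0.112 to 9.79 CPM around a median of 7.79. Mice 93 and 67 were again the low Tg mice, at 0.112 and 0.231 CPM, and the groups overlapped there alone. The log2 fold change was 2.99 (standard error 0.899, edgeR Benjamini-Hochberg adjusted p = 0.611), and 2.69 without mouse 41.

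Cldn2 encodes claudin 2, a tight junction protein that forms pores for cations and water in leaky epithelia (chromosome X, 139800828 to 139811386, plus strand). It was at 2.92, 0.0555, 1.01, 0.473 and 0.0563 CPM in Wt mice 12, 41, 79, 80 and 95. The lowest Tg level was 0.0577, the median 5.83 and the highest 8.12 CPM. Mice 67 and 93, at 0.0577 and 0.279 CPM, were within the Wt range and the other 5 Tg mice above it. The log2 fold change of Cldn2 was 2.82 (standard error 0.934, edgeR Benjamini-Hochberg adjusted p = 0.611), and 2.60 without mouse 41.

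**Figure D1:**
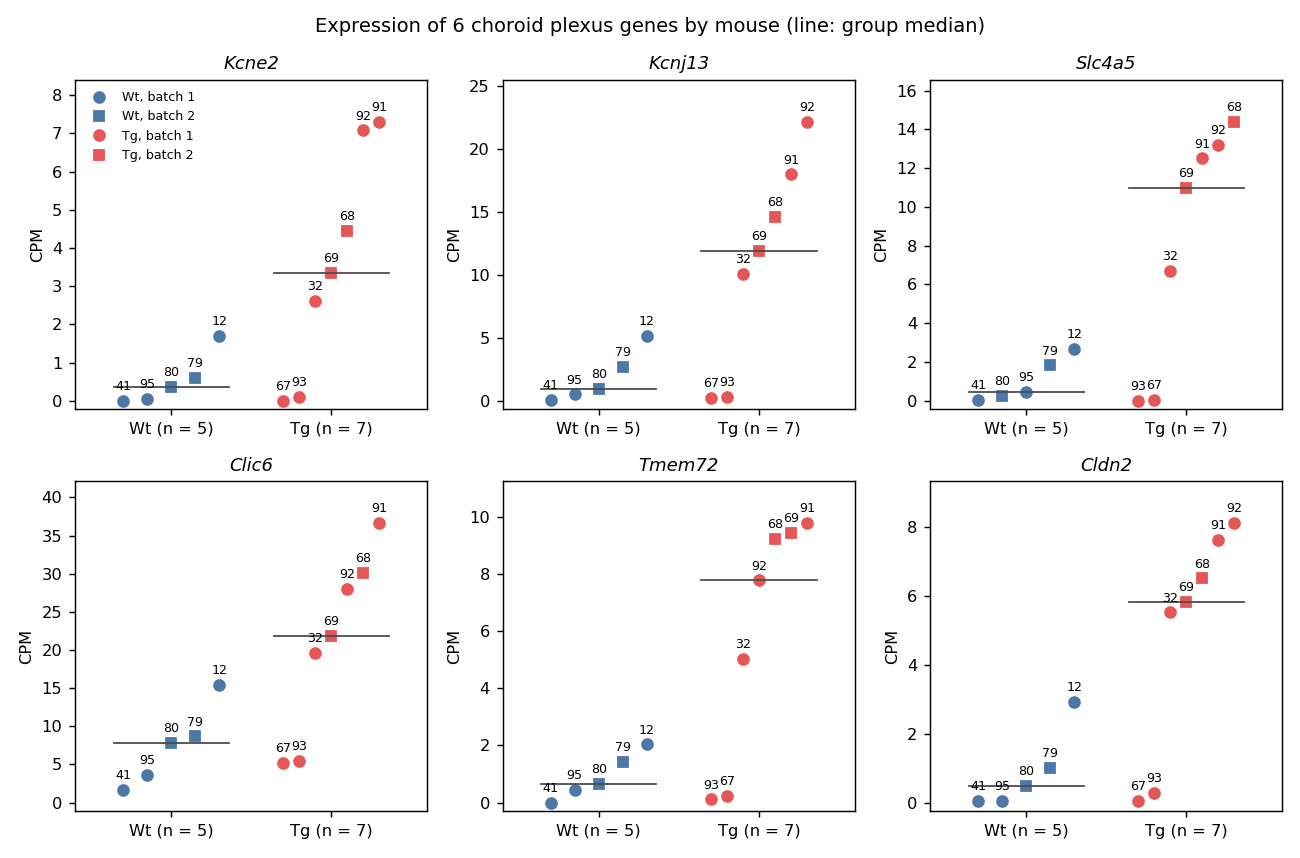
Level of each of the 6 genes in CPM (vertical axis, from 0) in each of the 5 Wt and 7 Tg mice, with the mouse number beside each point, circles for batch 1, squares for batch 2 and a line at the group median. In every panel Tg mice 67 and 93 sit with the Wt mice and the other 5 Tg mice sit above all of them.

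Between Tg and Wt mice 0 of the 6 genes passed an adjusted p of 0.1 in edgeR, where 1 of 15928 genes (0.00628%), App, did so. DESeq2 also called 0 of the 6 and called 56 genes (0.352%). At an unadjusted p under 0.05 edgeR had 6 of 6, beside 1146 of all genes (7.19%) and 1097 of the 1349 paired genes. Without mouse 41 the unadjusted edgeR p of the 6 genes ran from 0.0150 to 0.0264 (adjusted p = 0.956), and 574 of the paired genes were under 0.05. Nothing is read from these counts, because the genes were nameable through the same contrast. The median log2 fold change of the 6 genes was 2.95, beside 0.00 over all genes and 0.32 over the paired genes, and 2.67 without mouse 41. Wt mouse 12 had the highest level of each gene among Wt mice, and without it the median was 4.61, with 7.22 for Kcne2, 4.56 for Kcnj13, 4.65 for Slc4a5, 2.28 for Clic6, 4.14 for Tmem72 and 6.22 for Cldn2. The adjusted p of the genes ran from 0.135 to 0.982 over the edgeR fits that left out 1 mouse each. In DESeq2, fitted to all 12 mice, it ran from 0.238 to 0.478.

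Taken one gene at a time, with no covariates, the difference in mean log2 CPM (prior count 2) was compared over every one of the 792 ways to split the mice 5 to 7. The exact permutation test, two-sided and unadjusted, gave p = 0.129 for Kcne2, 0.129 for Kcnj13, 0.179 for Slc4a5, 0.0543 for Clic6, 0.115 for Tmem72 and 0.109 for Cldn2, and the smallest p it can give is 0.00126. So 0 of the 6 genes had p under 0.05 by this test. The test was run on these 6 genes only, so no share over all genes can be set beside its counts, and nothing is read from them. Without mouse 41 the exact permutation p ran from 0.142 for Clic6 to 0.321 for Slc4a5. Single mice moved this count. By the exact permutation test it was 4 without Tg mouse 67 (p = 0.0368 for Kcne2, 0.0476 for Kcnj13, 0.0281 for Clic6 and 0.0325 for Cldn2), 3 without Tg mouse 93 (Slc4a5, Clic6 and Tmem72) and 2 without Wt mouse 12 (Clic6 and Cldn2).

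Both batches had the same sign. In batch 2 both Tg mice were above both Wt mice in each of the 6 genes, with Slc4a5 at 11.0 and 14.4 CPM against 0.236 and 1.83. The difference in mean log2 CPM there was 2.79 for Kcne2, 2.95 for Kcnj13, 3.96 for Slc4a5, 1.63 for Clic6, 3.13 for Tmem72 and 2.96 for Cldn2 (n = 2 and 2). In batch 1, with 3 Wt and 5 Tg mice, 3 Tg mice were above all Wt mice in each gene, and the differences were 2.01, 2.15, 1.53, 1.62, 1.96 and 2.11 in the same order. An edgeR fit of batch 1 alone with sex as covariate gave smaller log2 fold changes than the fit of all mice, with a median of 1.02 and values from 0.71 for Clic6 to 1.19 for Kcne2.

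The upper part of the order of the mice was shared by the 6 genes. Mice 32, 68, 69, 91 and 92 took the first 5 places in 6 of 6 genes, with mouse 32 in place 5 each time, and Wt mice 12 and 79 took places 6 and 7 in 6 of 6. Among the first 4 the order differed from gene to gene, with mouse 91 first in Kcne2, Clic6 and Tmem72, mouse 92 in Kcnj13 and Cldn2, and mouse 68 in Slc4a5. Places 8 to 12 were less alike, with mouse 93 in place 9 in Kcne2 and place 12 in Slc4a5, and mouse 95 in place 8 in Slc4a5 and place 11 in Clic6 and Cldn2. Summed over the 6 genes, Wt mice 12, 41, 79, 80 and 95 had 29.9, 1.83, 16.2, 10.5 and 5.12 CPM. The Tg sums were 5.77 in mouse 67, 6.31 in mouse 93, 49.6 in mouse 32, 63.4 in mouse 69, 79.4 in mouse 68, 86.4 in mouse 92 and 91.8 in mouse 91. The low Tg mice 67 and 93 carried App at 5198 and 5145 CPM, in the upper part of the Tg range.

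**Figure D2:**
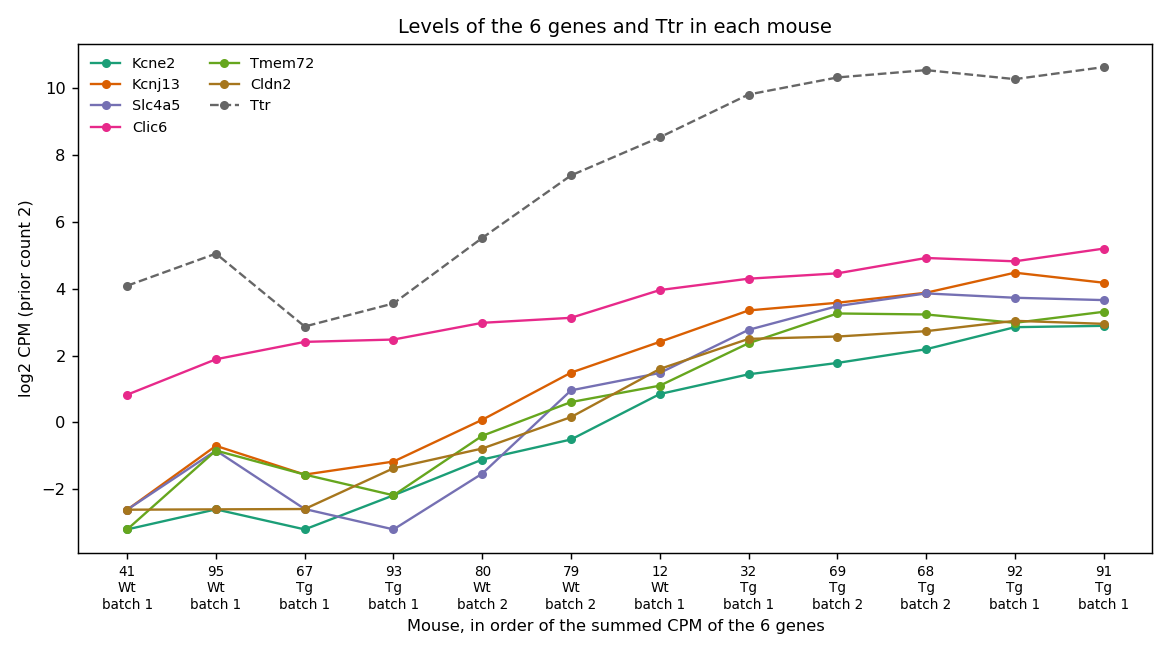
Level of each of the 6 genes and of Ttr as log2 CPM with a prior count of 2 (vertical axis) in the 12 mice, placed in order of the summed CPM of the 6 genes (horizontal axis). Every line climbs from mouse 80 through mice 79, 12 and 32 to mouse 69, while mice 41, 95, 67 and 93 keep no common order, as between mice 95 and 67, where Clic6 is higher and Slc4a5, Tmem72 and Ttr are lower in mouse 67.

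How closely a pair of genes kept one ratio was measured as the standard deviation (SD) over the 12 mice of their difference in log2 CPM. Over the 15 pairs its median was 0.73, with 0.32 for Kcne2 and Cldn2 at the low end and 1.63 for Slc4a5 and Clic6 at the high end. For comparison, the SD of log2 CPM of a single gene over the mice was 2.35 for Kcne2, 2.53 for Kcnj13, 2.78 for Slc4a5, 1.37 for Clic6, 2.34 for Tmem72 and 2.35 for Cldn2. The 5 pairs that hold Clic6 had a median of 1.11 and the other 10 pairs 0.64. The value leans on the prior count where counts are near 0, since with a prior count of 0.5 the median over 15 pairs was 1.13.

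Clic6 stood apart in the mice where the other genes were low. It made up 90.9% of the summed CPM of the 6 genes in mouse 41, 90.0% in mouse 67, 86.7% in mouse 93, 74.6% in mouse 80 and 70.3% in mouse 95. In the 5 high Tg mice its share was between 32.5% and 39.8%. Against Ttr, the transthyretin gene of choroid plexus epithelium, the SD of the log2 ratio was 0.49 for Slc4a5, 0.76 for Kcnj13, 0.89 for Kcne2, 0.93 for Cldn2, 0.95 for Tmem72 and 1.84 for Clic6. These differences between genes are a description and were not tested.

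Levels can be set side by side between genes only per length, here as CPM per kb of all exon bases of the gene in GENCODE M21. The order depends on these annotated lengths, and which transcripts were expressed was not tested. Kcnj13 was divided by 1270 bases, of which 49.1% also lie in exons of Gigyf2. The median over 12 mice was 3.11 for Kcnj13, 3.07 for Clic6, 0.647 for Kcne2, 0.590 for Cldn2, 0.389 for Slc4a5 and 0.101 for Tmem72. In Wt mice the order was led by Clic6, with a median of 1.99 CPM per kb against 0.745 for Kcnj13. In Tg mice Kcnj13 led with a median of 9.36 against 5.58 for Clic6. Kcne2, Slc4a5 and Cldn2 were close together in Tg mice, with medians of 1.89, 1.90 and 1.75 CPM per kb, differences well inside their spread over mice. Tmem72 was lowest in both groups, at 0.0379 and 0.454, and its exons span 17177 bases in the annotation.

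Sex and batch were compared in the same fit. The fitted log2 difference (male minus female), with genotype and batch as covariates, was below 0 in 6 of 6 genes, with a median of -1.69 and a range from -2.15 in Kcne2 to -1.18 in Clic6, and none passed the test. Without covariates the means of the 5 mice labelled male and the 7 labelled female were close in Slc4a5, at 5.21 and 5.30 CPM, and in Tmem72, at 3.87 and 3.84 CPM, and lower in males in the others, as in Kcnj13 at 5.47 and 8.49 CPM. The male means include mouse 41, which had 0.0555 CPM of Slc4a5 and 0 of Tmem72, so without it they would be higher. In batch 2 both males, which were the Tg mice, were above both females in each gene. In this contrast edgeR called 0 of the 6 genes and 0 genes of all (0%), with an adjusted p of 0.430 to 0.629 for the 6. Xist was not called there either, with mouse 41 entered as male (edgeR Benjamini-Hochberg adjusted p = 0.325). Without mouse 41 its edgeR adjusted p was 4.02e-09, so the 0 of all genes depended on the label of that mouse. DESeq2 called 0 of the 6 and 175 of all (1.10%). At an unadjusted p under 0.05 edgeR had 1 of the 6, Clic6, beside 942 genes higher and 859 lower in males out of 15928. DESeq2 had 4 of the 6, beside 960 higher and 916 lower out of the same 15928. The DESeq2 fit was run only with mouse 41 entered as male. The median was -1.03 without Tg mouse 67, the only Tg male of batch 1. Without mouse 41 it was -1.30, and the unadjusted edgeR p of the 6 genes ran from 0.154 for Clic6 to 0.438 for Slc4a5. Without Wt mouse 95, the only other Wt mouse labelled male, edgeR called 540 genes of all and 0 of the 6.

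Between batches the 6 genes had a median log2 difference (batch 2 minus batch 1) of 1.34, from 0.86 in Clic6 to 1.54 in Tmem72, and the median was 1.07 without mouse 41. The edgeR fit called 0 of the 6 and 0 of all genes (0%), with 0 of the 6, and 534 higher and 683 lower genes of all, at an unadjusted p under 0.05. DESeq2 called 0 of the 6 and 24 of all (0.151%). The batch value moved with single mice, and was 0.65 without Tg mouse 67, 1.97 without Wt mouse 79, 2.20 without Wt mouse 80 and 2.30 without Wt mouse 12. Whether the Tg against Wt difference itself varied with sex was asked by the interaction of genotype and sex, for which edgeR called 0 of the 6 and 0 of all genes (0%), and had 0 of the 6, and 324 higher and 243 lower genes of all, at an unadjusted p under 0.05. DESeq2 called 0 of the 6 and 17 of all (0.107%). The edgeR p of the interaction was 0.274 for Cldn2 and up to 0.754 for Slc4a5, with an adjusted p of 0.992. Its standard errors, worked back from the same F statistic, ran from 1.38 in Clic6 to 3.74 in Kcne2. They were larger than the estimates in 5 of 6 genes, which restates these p-values. Without mouse 41 the unadjusted p of the interaction ran from 0.392 to 0.977 in edgeR, where mouse 95 is the lone Wt mouse labelled male and is assumed to vary like the other groups.

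The summed level of other markers of the choroid plexus epithelium was high in the mice where the 6 genes were high. Of 22 further markers listed, 18 were paired, again through the contrast of Tg with Wt mice. Their part in the result was not tested except as a covariate. Their summed level in Wt mice 12, 41, 79, 80 and 95 was 712, 165, 419, 268 and 199 CPM. In Tg mice it was 178 in mouse 67, 170.1 in mouse 93, 1448 in mouse 32, 1954 in mouse 69, 2045 in mouse 92, 2301 in mouse 68 and 2514 in mouse 91. By its mean over the 12 mice Ttr was the most abundant, from 7.21 CPM in Tg mouse 67 to 1581 CPM in Tg mouse 91, and 371 CPM at most in Wt mice. The sum leaned on Ttr in the high mice, as in mouse 91 with 1581 of 2514 CPM. It did not lead in each mouse, since in mice 41, 67 and 93 it was at 16.9, 7.21 and 11.7 CPM, while Slc4a2, another of the 18, was at no less than 19.7 CPM in Wt and 21.9 CPM in Tg mice. Calml4 was the only 1 of the 18 at 0 counts in a mouse. The 5 Tg mice that were high in the 6 genes were above all Wt mice in this sum too, and mice 67 and 93 were among the 4 lowest of the 12.

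When the mean log2 CPM of these 18 markers was added to the edgeR fit as a covariate, the Tg against Wt value turned negative in 5 of the 6 genes. It was -1.07 for Kcne2, -0.79 for Kcnj13, -1.74 for Slc4a5, -0.61 for Tmem72 and -0.52 for Cldn2, and 0.28 for Clic6, with a median of -0.70. No call was made for any of the 6 in this fit, in which edgeR called 2 of 15928 genes. The covariate differs between the genotypes itself, so this value is no measure of the genotype alone.

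**Figure D3:**
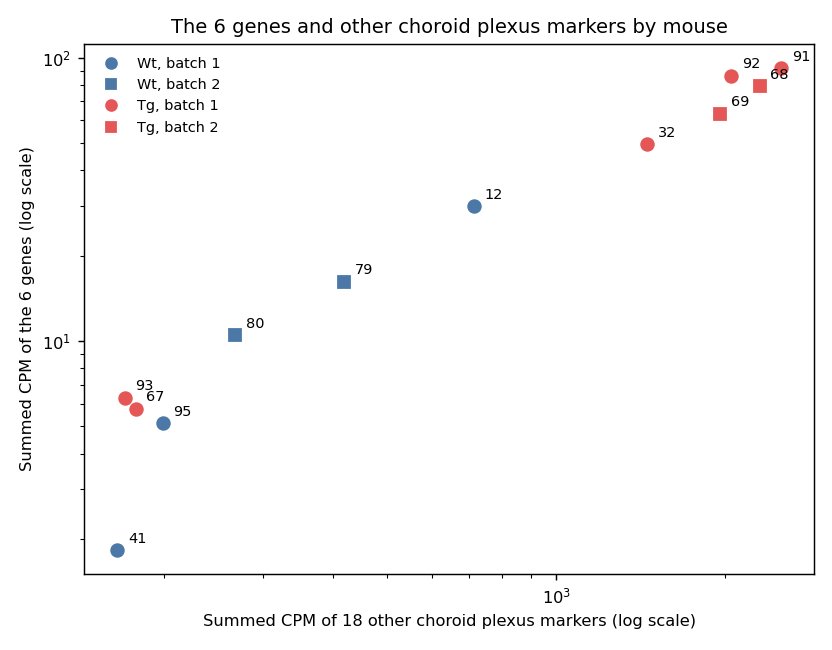
Summed CPM of the 6 genes (vertical log axis) against the summed CPM of 18 other choroid plexus markers (horizontal log axis), 1 point per mouse, blue for Wt and red for Tg, circles for batch 1 and squares for batch 2. Mice 41, 67, 93 and 95 lie at the lower left, Wt mice 80, 79 and 12 between, and 5 Tg mice at the upper right.

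Among the 1343 other paired genes, those with a pattern over the 12 mice most like the 6 genes were found as the 10 with the smallest SD of log2 CPM minus the mean log2 CPM of the 6. They were 1500015O10Rik (SD 0.61), Calml4 (0.65), Folr1 (0.71), Aqp1 (0.72), Otx2 (0.73), F5 (0.79), Slc39a4 (0.88), Ttr (0.89), Klk6 (0.89) and A2m (0.99), and the next gene had 1.01. Of these, 6 were on the choroid plexus marker list, among them Folr1, a folate receptor, Aqp1, a water channel, and Otx2, a homeobox transcription factor. The remaining 4 were 1500015O10Rik, the zinc transporter gene Slc39a4, the kallikrein gene Klk6 and A2m, the gene of alpha-2-macroglobulin. The median over all 1343 genes was 2.23. Each of the 6 genes was set against the mean of the other 5, so that it was not compared with itself. The SD was 0.38 for Kcne2 and Kcnj13, 0.44 for Tmem72, 0.49 for Cldn2, 0.87 for Slc4a5 and 1.18 for Clic6. The 10 genes were set against the mean of all 6, so their values have another reference. Against the mean of all 6, which contains it, Clic6 had 0.98. Without mouse 41, 9 of the 10 were kept, all but A2m. Folr1 was between 0.111 and 2.39 CPM in Wt mice and had a median of 11.3 CPM in Tg mice, where its lowest level was 0.0577 and its highest 15.8. 1500015O10Rik ran from 0.333 to 4.20 CPM in Wt mice and from 0.173 to 15.1 CPM in Tg mice, with medians of 0.962 and 8.60.

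Of 72 further genes listed for the transport and junction roles of this epithelium, 17 could be paired. By edgeR 0 of the 17 were called, with 17 of 17 at an unadjusted p under 0.05, beside 7.19% of all genes and 1097 of the 1349 paired genes. By DESeq2 2 of the 17 were called, Trpv4 and Slc4a2, both higher in Tg mice, beside 0.352% of all genes. As all 17 were named through the same contrast, these counts describe them only. The log2 fold change was above 0 in 15 and below 0 in 2, with a median of 0.65 and a range from -0.29 to 2.18, beside the median of 2.95 of the 6 genes. Of these 17 genes, 3 are also on the choroid plexus marker list, Aqp1, Trpv4 and Slc4a2, and so enter the marker score used as a covariate.

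Aqp1, the water channel of the membrane that faces the fluid, had the highest value of the 17, a log2 fold change of 2.18 (standard error 0.797, edgeR Benjamini-Hochberg adjusted p = 0.621), and 2.13 without mouse 41. Its level was 0.225 to 3.09 CPM in Wt mice and 0.335 to 8.59 CPM in Tg mice, with 5 Tg mice above all Wt mice. Trpv4, an osmosensitive cation channel, was at 0.732 to 2.16 CPM in Wt mice and 0.923 to 9.67 in Tg mice, and its log2 fold change was 2.02 (standard error 0.507, Benjamini-Hochberg adjusted p = 0.597 in edgeR and 0.0159 in DESeq2). Slc4a2, an anion exchanger of chloride and bicarbonate, had medians of 22.6 CPM in Wt and 51.7 CPM in Tg mice, and its log2 fold change was 0.95 (standard error 0.252, Benjamini-Hochberg adjusted p = 0.597 in edgeR and 0.0613 in DESeq2).

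Of the other roles, the carbonic anhydrases Car14 and Car13, which make bicarbonate, had log2 fold changes of 1.36 and 0.98, and Car4 had -0.29. The sodium, potassium and chloride cotransporter gene Slc12a2 had 0.51, from a Wt range of 34.0 to 57.8 CPM and a Tg range of 35.0 to 100.1, the sodium pump regulator Fxyd1 0.66 and the anion transporter gene Slc26a11 0.65. Among the channels Clic4 had 0.57, Clic1 0.44 and Trpm3 0.33, while Kcnj16, an inward rectifier like Kcnj13, had -0.27 and was lower in 5 of 7 Tg mice than in all Wt mice. At the junctions, the claudin genes Cldn1 and Cldn11 had 0.96 and 0.93, Cgnl1, encoding a cingulin-like protein, 0.58 and F11r, a junctional adhesion molecule, 0.47. None of the 5 sodium-hydrogen exchange genes listed was paired. Cldn11 is also a gene of myelin, where oligodendrocytes express it.

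**Figure D4:**
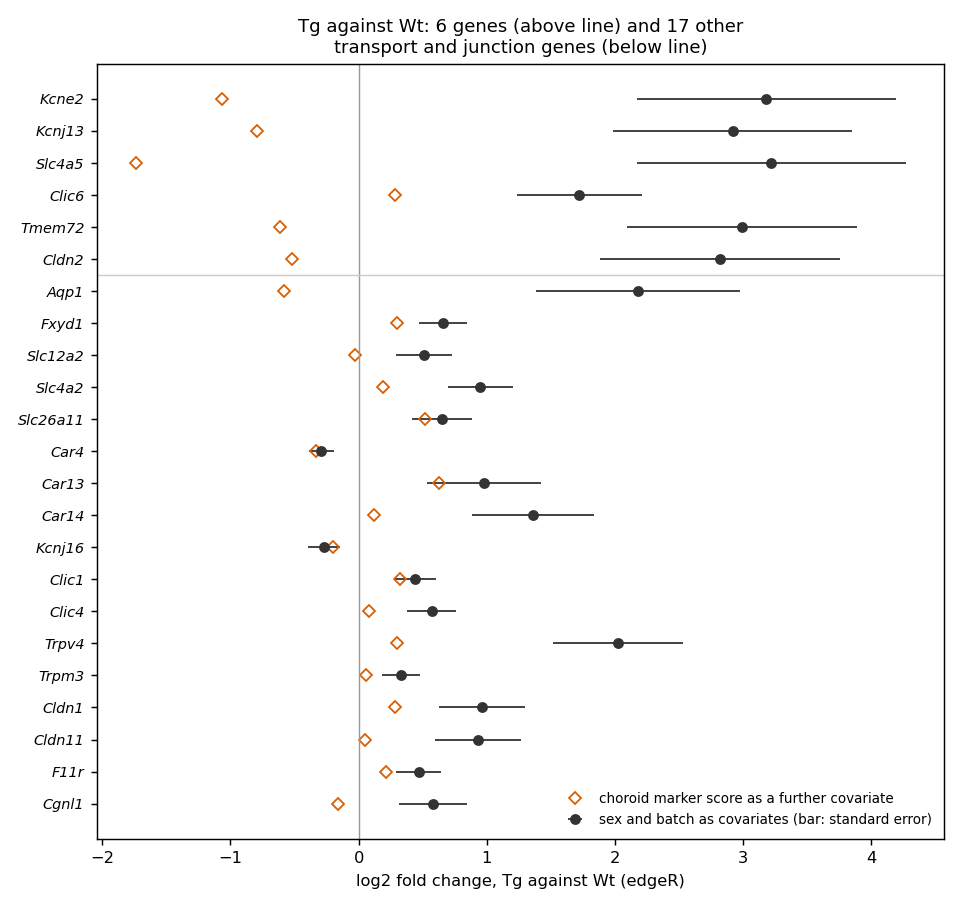
Log2 fold change of Tg against Wt mice in edgeR (horizontal axis) for the 6 genes, above the line, and 17 transport and junction genes, below it. Filled points have sex and batch as covariates, with bars of 1 standard error worked back from the F statistic. Open diamonds add the choroid plexus marker score, with which 5 of the 6 genes fall below 0. The diamonds of Aqp1, Trpv4 and Slc4a2 are adjusted for a score that contains these genes themselves.

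Markers of other cells were read in the same libraries, again only as far as they could be named. As the naming went through the contrast of Tg with Wt mice, differences of their sums between the groups describe the named markers only. Nothing about the cell types is read from them. Ependymal cells, which line the ventricles, had 4 of 16 markers paired, with Tppp3 the most abundant and none at 0. Their sum in Wt mice 12, 41, 79, 80 and 95 was 41.2, 27.3, 39.3, 32.3 and 35.2 CPM. All 7 Tg mice were above that, at 41.5 in mouse 93, 41.7 in mouse 67, 50.5 in mouse 32, 51.0 in mouse 68, 53.7 in mouse 69, 61.1 in mouse 92 and 70.5 in mouse 91. Mice 67 and 93, low in the 6 choroid plexus genes, were thus the lowest Tg mice here as well, by a much smaller margin.

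Oligodendrocytes had 10 of 12 markers paired, with Mbp the most abundant (565 to 2999 CPM) and none at 0. Their sum was 3631, 1089, 1994, 1585 and 1465 CPM in Wt mice 12, 41, 79, 80 and 95. In Tg mice it was 1486 in mouse 93, 1979 in mouse 67, 3388 in mouse 92, 3650.2 in mouse 69, 4709 in mouse 32, 4719 in mouse 68 and 6067 in mouse 91, so the mice high in the 6 genes, and Wt mouse 12, were high in these markers too. The part of oligodendrocytes and ependymal cells in the values of the 6 genes was not tested.

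The remaining lists held fewer named genes, with the same limit from naming through the contrast of Tg with Wt mice. Of 14 markers of meningeal and stromal fibroblasts 1 was paired, Slc6a20a, at 4.28 to 20.7 CPM in Wt and 7.48 to 16.0 in Tg mice. Microglia had 3 of 11 paired, led by C1qb, with sums of 55.9 to 71.2 CPM in Wt and 69.4 to 90.4 in Tg mice, 6 of the 7 Tg mice being above all Wt mice. Astrocytes had 5 of 9 paired, led by Slc1a2, with sums, largely of Slc1a2, of 2740.1 to 3537 CPM in Wt and 2492 to 3122 in Tg mice, while the log2 fold change was above 0 in 3 of the 5, with a median of 0.31. Neurons had 4 of 10, led by Camk2a, with sums of 4040.2 to 6216 and 3449 to 4719.9 CPM, and the log2 fold change was above 0 in 1 of the 4, with a median of -0.25. Of 10 endothelial markers 0 were paired. None of the paired genes of these lists was at 0 counts in a mouse, and the neuronal and astrocyte markers of the labelled tissue were present in every library.

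By position, Kcne2 and Clic6 are the only pair of the 6 within 500 kb of each other, 187.6 kb apart on the same strand of chromosome 16. Within 500 kb of the 6 genes 3 other paired genes were found. Rassf4, 5.1 kb from Tmem72, was at 2.50 to 9.45 CPM in Wt and 5.97 to 11.6 CPM in Tg mice, and its log2 fold change was 0.74 (standard error 0.273, edgeR Benjamini-Hochberg adjusted p = 0.625). Near Slc4a5 lie Loxl3, at 167.3 kb with a log2 fold change of 0.55, and Sema4f, at 280.1 kb with -0.25. Their difference in log2 CPM from the mean of the 6 genes had an SD of 1.85 for Rassf4, 2.03 for Loxl3 and 2.41 for Sema4f over the mice, beside the median of 2.23 for all paired genes.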

How the data were processed

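Total RNA freed of ribosomal RNA was sequenced on an Ion Torrent S5XL for 12 mice, 5 Wt and 7 Tg. The authors aligned reads to mm10 with STAR and Bowtie2 (versions not given), removed genes with few counts, and deposited raw counts per gene. A further deposited table holds the library sizes and a normalization factor, a ratio of each library to the others from the authors' use of edgeR. Sizes equalled the sums of counts in 12 of 12 libraries. Every gene of the table was above 1 CPM in 5 or more libraries, and genes found in fewer are missing from it. Kcne2, Kcnj13, Slc4a5, Tmem72 and Cldn2 reached this only through the 5 high Tg mice. Their higher level in those mice was thus also a condition of being in the table.

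Names came from solving the size factors that turn the counts into the paper's means, as a single match within 1e-09, and 335 entries stayed unpaired. The match and the tests were tested on simulated data, with the same dispersion for every gene, no sex or batch effect, and changes uniform within a group. The 6 genes varied more than that within the Tg mice. The simulation therefore does not show how the tests behave for genes like them. Genes named are the 6, App and Xist as checks of the labels, the paired genes of the transport and junction list, Ttr and the most abundant paired genes of each marker list, the 10 nearest in pattern, and paired genes within 500 kb. The 6 genes, the gene lists and the motifs were chosen with earlier results of these data known.

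The design ~ sex + batch + genotype was fitted to all 15928 genes in edgeR 4.0.16 (R 4.3.3, TMM, filterByExpr, quasi-likelihood F-test, Benjamini-Hochberg over all genes, adjusted p under 0.1), with a biological coefficient of variation of 0.201, and DESeq2 1.42.0 as an alternative. Exact permutation, standard deviations and motif searches used numpy 2.4.6, scipy 1.17.1 and pandas 2.3.3 in Python 3.11.15, with figures in matplotlib 3.10.9. Standard errors given for edgeR are the absolute log2 fold change divided by the square root of the F statistic. The log scale used a prior count of 2. Positions and exons are GENCODE M21 (GRCm38) and promoters RefSeq (GRCm38.p6). Alternatives covered count model, normalization, filter, covariates, threshold, sex label of mouse 41, batch 1 alone, prior count and each mouse left out. DNA methylation was not used. No paired analysis was possible, because each mouse gave 1 library and the groups share no animals.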

Additional observations from a re-analysis of the deposited data

How the results depend on the processing

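Over the alternatives tried, the log2 fold change of the 6 genes between Tg and Wt mice was positive in 130 of 135 values, and the 5 others came from the choroid plexus marker score as covariate: -1.07 for Kcne2, -0.79 for Kcnj13, -1.74 for Slc4a5, -0.61 for Tmem72 and -0.52 for Cldn2. With it the median turned from 2.95 to -0.70, and the number of genes called from 1 to 2. The cause was not tested. Leaving out 1 mouse at a time gave a median of 2.55 to 4.61. The number of genes called was 1 to 2 with 1 mouse left out (2 without Tg mouse 93), 56 by DESeq2 and 0 in batch 1 alone, where fewer mice were fitted. None of the 6 genes was called by edgeR or DESeq2 under any alternative. Of the 17 transport and junction genes DESeq2 called 2 and every edgeR fit 0.

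For sex, the number of genes called was 0, but 175 by DESeq2 and 0 to 540 with 1 mouse left out. It was 1, Xist, with mouse 41 taken as female. For batch it was 0, and 24 by DESeq2. For the interaction it was 0, and 17 by DESeq2, 1 with mouse 41 taken as female and 0 to 1 with 1 mouse left out (1 without Tg mouse 32 or Wt mouse 95, the latter leaving mouse 41 the lone Wt mouse labelled male). The medians of the 6 genes for sex and batch were tried under alternatives chosen after seeing the data and ran, with 1 mouse left out, from -2.40 to -1.03 and from 0.65 to 2.30. The number of the 6 genes with an exact permutation p under 0.05 was 0 to 4 with 1 mouse left out. The spread of their log2 ratios was 1.13 with a prior count of 0.5, 0.50 with 5, and 0.66 to 0.76 with 1 mouse left out. The causes were not tested.

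Low counts limit the values: in mice 41, 67, 93 and 95 the 5 genes other than Clic6 rest on fewer than 10 counts each, and 3 counts are 0.137 to 0.195 CPM. A filter at a mean of 5 CPM left no value for genes under it. Batch 2 holds 2 mice of each genotype, of opposite sex by label.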
